A study of Homo sapiens with 8 samples.

Results

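Transcript levels of the collagen chain genes were measured by bulk RNA sequencing of the lung fibroblast line MRC5 (established, human) in 4 groups of 2 libraries: shMTHFD2 cells with TGF-β1, shMTHFD2 control cells, shMock cells with TGF-β1 and shMock control cells. The collagen chain genes are all protein-coding genes whose symbol is COL, a number, A and a number, and 44 of the 60666 gene IDs in the deposited count table met that rule. All cells carried a hairpin vector. The shMTHFD2 cells held a hairpin against MTHFD2, a mitochondrial enzyme of folate metabolism, and the shMock cells a control hairpin. A single hairpin and no rescue line were available, so the loss of MTHFD2 and other differences between the transduced lines cannot be told apart. Stimulated cells received 4 ng of the cytokine (no volume stated) over 24 h, and that text is attached to the control samples as well, so the titles and the treatment field decided the groups. The genotype field of 3 shMTHFD2 samples carries another gene's name, and part of the extraction text speaks of a different line and hairpin. MTHFD2 itself stood at 93.8 and 91.9 CPM (counts of a gene relative to the scaled library size) with TGF-β1 in shMTHFD2 against 256 and 258 CPM in shMock, and at 14.9 and 18.7 CPM without it in shMTHFD2 against 58.8 and 57.2 CPM in shMock. It was lower in the knockdown at each treatment.

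Collagens are trimers of α chains wound into a helix, and each chain has a gene of its own. Fibrillar collagens, with type I the main protein of scar, pack into tension-bearing fibrils. Type IV chains form the sheet of basement membranes, type VI chains form beaded filaments around cells, and FACIT collagens coat fibrils without forming them. Chains fold, are hydroxylated and joined in the endoplasmic reticulum, leave in large carriers, lose their end propeptides and are cross-linked outside the cell. TGF-β1 is a cytokine known to drive fibroblasts towards matrix production, and collagen accumulation is a hallmark of lung fibrosis.

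The cells were fibroblasts by their markers. The 8 fibroblast markers, among them VIM and DCN, summed to 9044 to 12130 CPM per library. The 5 epithelial markers summed to at most 0.230 CPM with KRT5 and SFTPC at 0 counts, the 3 endothelial markers to at most 2.31 CPM (all of it VWF, with PECAM1 and CDH5 at 0), the 2 smooth muscle markers to at most 0.255 CPM with DES at 0, and the 3 leukocyte markers to at most 1.03 CPM with CD3E at 0. Of the 3 cartilage markers, SOX9 and MATN3 were present and ACAN was at 0, for a sum of 48.4 to 81.6 CPM. Libraries held 18162738 to 22221927 counts, so 3 counts, used as the floor, stood at 0.135 to 0.172 CPM. This limit and the intervals below cover counting error only. Replicates differed by more than counting error (chi-square per degree of freedom 6.09 to 9.95). Whether they came from separate cultures is not stated, and the p-values then cover only library-to-library spread, possibly technical.

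Of the 44 chain genes, 28 reached a mean of 1 CPM over the 8 libraries and were tested among 13493 genes. Of the 16 below that level, 8 had no counts in any library: COL2A1 (cartilage fibrils), COL4A3 and COL4A4 (the type IV chains of kidney and lung alveolar basement membranes), COL6A5, COL17A1 (a chain of epithelial hemidesmosomes), COL22A1, COL23A1 and COL26A1. A count of 0 allows up to 0.135 to 0.172 CPM in a library. The other low chains summed over all libraries to 57 counts for COL21A1, 43 each for COL25A1 and COL28A1, 19 for COL9A3, 6 for COL9A1, 3 each for COL6A6 and COL19A1, and 1 for COL20A1. The other chains of epithelium and cartilage in this list were thus at or near 0, while COL11A1, COL11A2, COL9A2 and COL10A1, which are also cartilage chains, passed the minimum.

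Collagen chains took a larger part of the transcripts in cells with TGF-β1. They made up 6.63 and 6.69% of all counts in shMTHFD2 TGF-β1 against 4.31 and 3.92% in shMTHFD2 control, and 6.48 and 6.10% in shMock TGF-β1 against 4.44 and 3.98% in shMock control. The groups with and without TGF-β1 did not overlap in either line, while at each treatment the 2 lines were close. Per length (CPM per kilobase of exon), the fibrillar chains held most of the collagen signal, with 71.8 and 72.5% of it in shMTHFD2 TGF-β1, 64.4 and 66.2% in shMTHFD2 control, 70.7 and 70.6% in shMock TGF-β1, and 64.3 and 63.3% in shMock control. Type VI chains held 14.7 and 14.1% in shMTHFD2 TGF-β1 against 24.5 and 22.5% in shMTHFD2 control, and 14.6 and 14.9% in shMock TGF-β1 against 25.0 and 26.1% in shMock control. Type IV chains held 7.37 and 7.48% in shMTHFD2 TGF-β1, 4.998 and 5.18% in shMTHFD2 control, 8.24 and 8.09% in shMock TGF-β1, and 5.05 and 5.07% in shMock control. The fibrillar and type IV shares were higher and the type VI share lower in every TGF-β1 library than in every control library. These shares were not tested, and a lower share is not a lower level. Type VI summed to 959 and 931 CPM per kilobase in shMTHFD2 TGF-β1 against 1046 and 862.5 in shMTHFD2 control, which overlap. In shMock the sums were 992.5 and 928 with TGF-β1 against 1150 and 1057 in control. Without length scaling, mean type VI CPM was 8865 with TGF-β1 against 7589 in shMTHFD2, and 9627 against 8935 in shMock. Bulk RNA cannot tell fewer cells of a type from less RNA per cell.

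**Figure D1:**
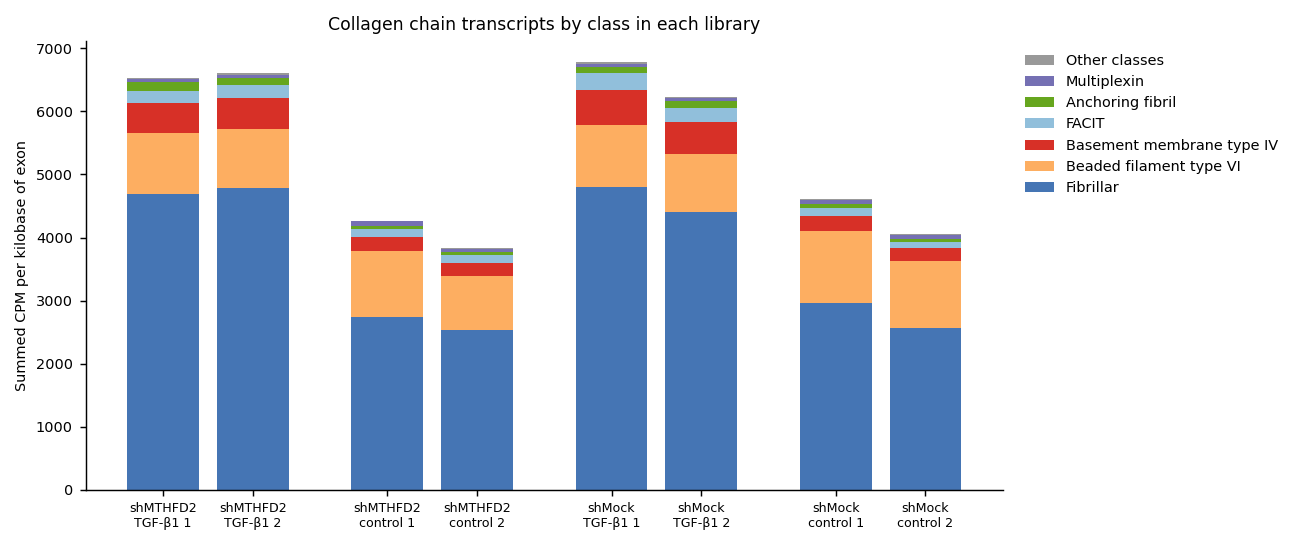
Summed level of the collagen chains per library in CPM per kilobase of exon (vertical axis), stacked by collagen class, with 2 libraries per group along the horizontal axis. The sums run to 6536 and 6605 in shMTHFD2 TGF-β1, 4264 and 3830 in shMTHFD2 control, 6782 and 6230 in shMock TGF-β1, and 4604 and 4053 in shMock control, and the fibrillar block is the tallest in every bar.

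The order of the chains was led by type I in every group. COL1A1 had 2597 CPM per kilobase in shMTHFD2 TGF-β1 and 1042 in shMTHFD2 control, against 2527 in shMock TGF-β1 and 1180 in shMock control, which is 39.5, 25.7, 38.8 and 27.3% of the collagen signal in those groups. COL1A2 was second in each, at 1187, 796, 1125 and 807 CPM per kilobase. Next came COL3A1 and then COL6A2 in both lines with TGF-β1. Among control cells COL3A1 was ahead in shMTHFD2 (515 CPM per kilobase, against 470 for COL6A2), and COL6A2 was ahead in shMock (541 CPM per kilobase, against 499 for COL3A1). The 2 stand close enough that no order between them is read from 2 libraries a group. COL4A1 ranked 5 in shMTHFD2 TGF-β1 and 9 in shMTHFD2 control, and 6 in shMock TGF-β1 and 9 in shMock control. Ranks rest on exon lengths from GENCODE 29 and are a description.

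TGF-β1 against control asks which chains the cytokine moved. In shMTHFD2 cells 13 of the 28 tested chains rose and 5 fell (edgeR quasi-likelihood test, adjusted p under 0.05), where 12.8% of all genes rose and 11% fell (23.8% either way). In shMock cells 14 rose and 9 fell, where 17.3% of all genes rose and 18.1% fell (35.4% either way). The median log2 fold change of the tested chains was 0.18 in shMTHFD2 and 0.32 in shMock, against -0.01 and -0.02 over all genes. COL10A1 reached the minimum level through its TGF-β1 libraries alone, so its place among the risers was set by that filter. The same 13 chains, COL10A1 among them, rose in both lines and the same 5 fell in both. Another 5 passed in shMock alone, none passed in shMTHFD2 alone, and none passed with opposite signs. Of those 5, COL5A2, COL5A3 and COL18A1 were also called in shMTHFD2 by some alternatives, so the list of chains called in shMock alone depends on the fit. Of all 13493 genes, 1392 rose in both lines and 1169 fell in both. Another 2211 passed in shMock alone, 649 in shMTHFD2 alone and 4 with opposite signs, so more calls in shMock alone is not particular to the chains. Over the 28 chains the log2 fold changes of the 2 lines, which share no library, correlated at a Pearson r of 0.985 and a Spearman rho of 0.979. COL10A1, which the filter let in through its TGF-β1 libraries, is the extreme point of that set (4.06 in shMTHFD2 and 3.92 in shMock). A correlation without it was not taken. Over all 13493 genes these were 0.75 and 0.693. Chains are not independent replicates, and the values are a description.

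**Figure D2:**
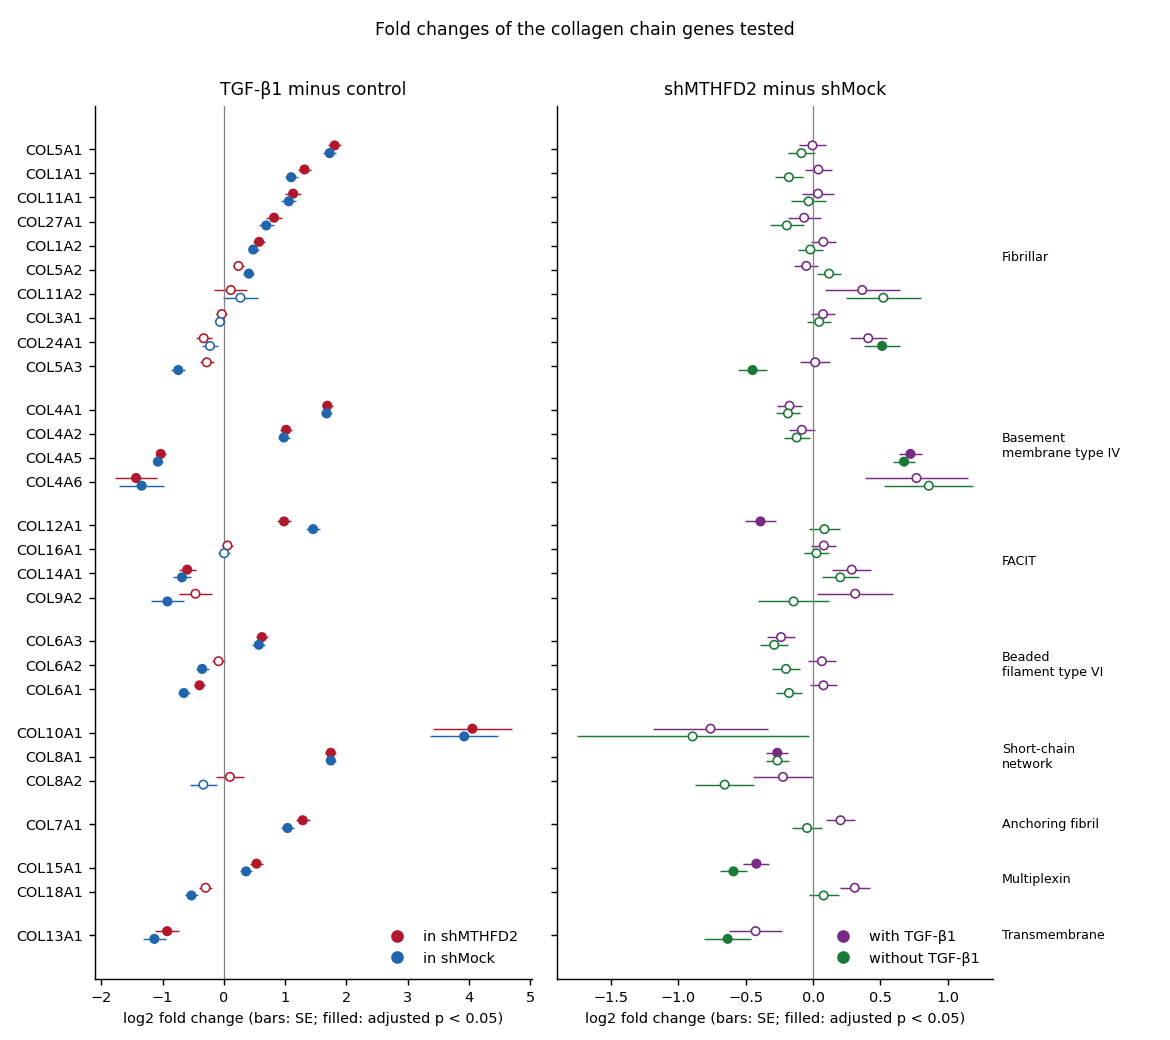
Log2 fold changes (horizontal axes) of the 28 collagen chains tested, by class, with the standard error as a bar and filled points for an edgeR adjusted p under 0.05. On the left, TGF-β1 minus control in shMTHFD2 (red) and shMock (blue) lie close together for most chains, with COL10A1 at 4.06 and 3.92 and COL4A6 at -1.43 and -1.34. On the right, shMTHFD2 minus shMock with (purple) and without (green) TGF-β1 lie nearer 0, with COL4A5 filled and above 0 in both.

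Among the fibrillar chains, 5 of 10 rose with TGF-β1 in shMTHFD2, and 6 rose and 1 fell in shMock. The α1 chain of type I, COL1A1 (ENSG00000108821, GRCh38 chromosome 17, 50183289 to 50201632, minus strand), stood at 25450 and 25550 CPM in shMTHFD2 TGF-β1 against 10840 and 9624 CPM in shMTHFD2 control, and at 26190 and 23430 CPM in shMock TGF-β1 against 12510 and 10660 CPM in shMock control. The TGF-β1 libraries lay above the controls without overlap, by 2.49-fold in shMTHFD2 (log2 1.317, SE 0.10, edgeR adjusted p = 1.39e-07) and 2.14-fold in shMock (1.10, SE 0.10, adjusted p = 8.09e-07). Its partner in the type I trimer, COL1A2, stood at 12920 and 13560 CPM in shMTHFD2 TGF-β1 against 9073 and 8690 CPM in shMTHFD2 control, and at 13030 and 12090 CPM in shMock TGF-β1 against 9588 and 8422 CPM in shMock control. It also rose without overlap, by 1.49-fold in shMTHFD2 (0.58, SE 0.09) and 1.39-fold in shMock (0.48, SE 0.09). Per length, COL1A1 exceeded COL1A2 by 2.24 and 2.14 times in shMTHFD2 TGF-β1 against 1.36 and 1.26 times in shMTHFD2 control, and by 2.28 and 2.20 times in shMock TGF-β1 against 1.48 and 1.44 times in shMock control. With the longest transcript as the length these ratios had means of 1.72, 1.03, 1.76 and 1.15, so their size depends on the gene model while their order over the groups does not.

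Type III, which co-assembles with type I in fibrils, did not pass the test in either line. COL3A1 stood at 3360 and 3497 CPM in shMTHFD2 TGF-β1 against 3639 and 3382 CPM in shMTHFD2 control, and at 3288 and 3225 CPM in shMock TGF-β1 against 3606 and 3197 CPM in shMock control. The groups overlapped in both lines, with log2 fold changes of -0.03 (SE 0.09, edgeR adjusted p = 0.825) and -0.06 (SE 0.09, adjusted p = 0.617). The COL3A1 to COL1A1 ratio per length was 0.190 and 0.197 in shMTHFD2 TGF-β1 against 0.484 and 0.507 in shMTHFD2 control, and 0.181 and 0.198 in shMock TGF-β1 against 0.415 and 0.433 in shMock control.

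The 3 chains of type V, a minor collagen that governs how thick fibrils grow, differed in their response. COL5A1 stood at 2018 and 1947 CPM in shMTHFD2 TGF-β1 against 604 and 527 CPM in shMTHFD2 control, and at 2008 and 1968 CPM in shMock TGF-β1 against 658 and 543 CPM in shMock control, a rise of 3.50-fold (1.81, SE 0.10, edgeR adjusted p = 2.9e-09) and 3.31-fold (1.73, SE 0.10, adjusted p = 3.93e-09). COL5A2, the chain it pairs with, stood at 1858 and 1974 CPM in shMTHFD2 TGF-β1 against 1646 and 1603 CPM in shMTHFD2 control, and at 2059 and 1909 CPM in shMock TGF-β1 against 1599 and 1392 CPM in shMock control. It rose in shMock (0.41, SE 0.09, edgeR adjusted p = 0.00235). In shMTHFD2 the value was 0.24 (SE 0.09, edgeR adjusted p = 0.0685), which the DESeq2 Wald test called (adjusted p = 0.0186), as did edgeR without the filter (adjusted p = 0.0286), without shMock TGF-β1 1 (adjusted p = 0.0408) and without shMock TGF-β1 2 (adjusted p = 0.0474). COL5A3 stood at 35.6 and 43.1 CPM in shMTHFD2 TGF-β1 against 50.8 and 44.6 CPM in shMTHFD2 control, and at 40.5 and 37.2 CPM in shMock TGF-β1 against 68.9 and 61.4 CPM in shMock control. It fell in shMock (-0.74, SE 0.11, edgeR adjusted p = 8.71e-05) and did not pass in shMTHFD2 (-0.28, SE 0.11, adjusted p = 0.0864; called with library totals at -0.39, adjusted p = 0.0147, with GC and length offsets at -0.31, adjusted p = 0.0468, and without shMTHFD2 TGF-β1 2 at -0.42, adjusted p = 0.0332), and the test of the difference between the lines did not call it (0.47, SE 0.16, adjusted p = 0.259). The COL5A1 to COL5A2 ratio per length was 0.723 and 0.657 in shMTHFD2 TGF-β1 against 0.245 and 0.219 in shMTHFD2 control, and 0.650 and 0.687 in shMock TGF-β1 against 0.274 and 0.260 in shMock control, so the chains stood nearer to each other with TGF-β1 in both lines.

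Of the remaining fibrillar chains, COL11A1, an initiator of fibrils best known from cartilage, had 28.8 and 32.5 CPM in shMTHFD2 TGF-β1 against 14.1 and 13.9 CPM in shMTHFD2 control, and 31.9 and 27.8 CPM in shMock TGF-β1 against 15.0 and 13.6 CPM in shMock control. It rose in both lines (1.13, SE 0.13, and 1.06, SE 0.13). COL27A1, likewise studied mainly in cartilage, rose by 0.82 (SE 0.12) in shMTHFD2 and by 0.69 (SE 0.12) in shMock. The cartilage markers SOX9 and MATN3 both fell with TGF-β1 in both lines. Summed with ACAN, they stood at 48.4 and 50.3 CPM in shMTHFD2 TGF-β1 against 81.6 and 71.9 CPM in shMTHFD2 control. In shMock the sums were 62.9 and 56.7 CPM with TGF-β1 against 77.2 and 73.1 CPM in control. Of the other cartilage chains, COL10A1 rose in both lines, and COL9A2 fell in shMock (-0.92) and was not called in shMTHFD2 (-0.46). A link between these markers and the chains was not tested. Of the 8 fibroblast markers, 4 rose and 2 fell in shMTHFD2 and 2 rose and 2 fell in shMock, and their part in the chain values was not tested. COL11A2 (0.11 and 0.27) and COL24A1 (-0.33 and -0.23) passed in neither line. With library totals COL24A1 was called lower in both (-0.44, edgeR adjusted p = 0.0182 in shMTHFD2; -0.36, adjusted p = 0.0409 in shMock), and with GC and length offsets in shMTHFD2 (-0.35, adjusted p = 0.0385).

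**Figure D3:**
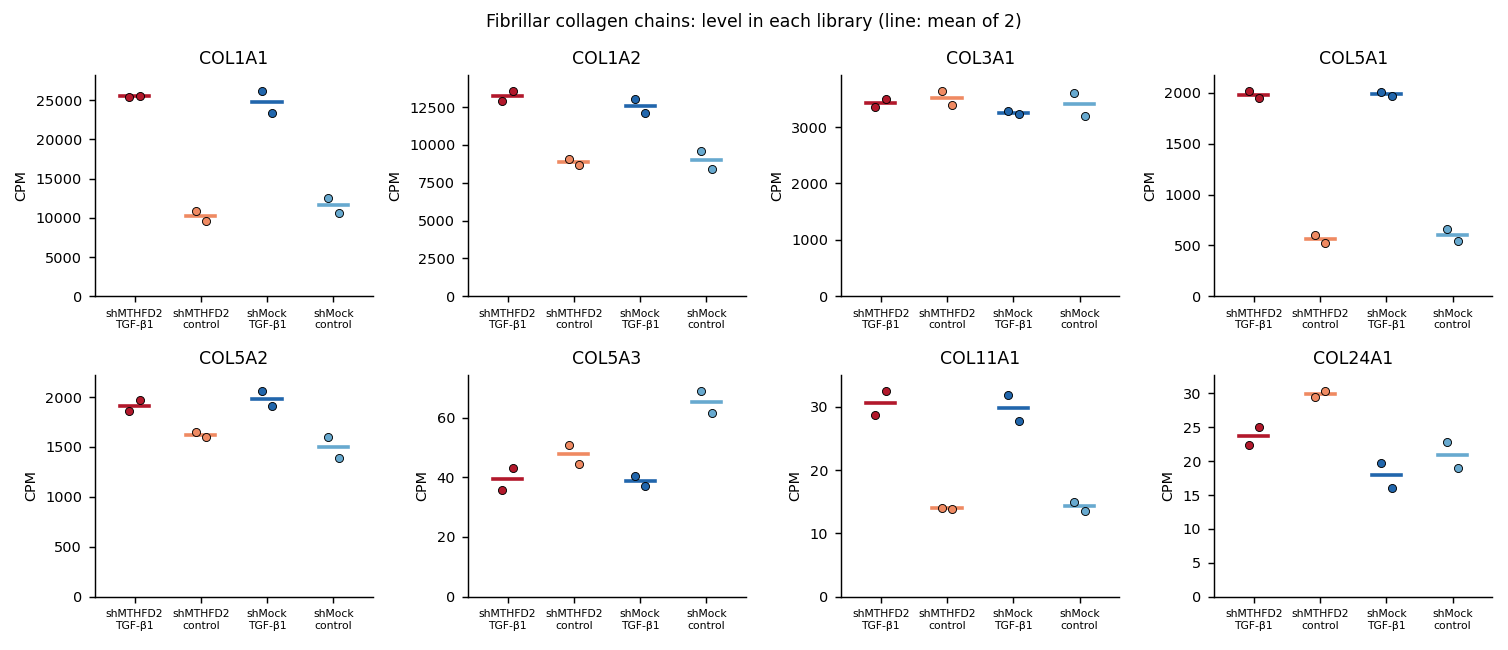
Level in CPM (vertical axes, from 0) of 8 fibrillar chains in each library, with 4 groups along the horizontal axis, points for single libraries and lines for the mean of 2. COL1A1, COL1A2, COL5A1 and COL11A1 are higher in all TGF-β1 libraries than in all controls, and COL3A1 overlaps between the groups.

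Type IV split into 2 pairs that moved in opposite directions. COL4A1 and COL4A2, the chains found in nearly all basement membranes, rose, and COL4A5 and COL4A6, which build more restricted networks, fell, in both lines. The members of each pair lie head to head on 1 chromosome and are read away from a shared start region, and the bases around these starts are shown because the pairs, and not the type as a whole, moved together. On chromosome 13 the annotated starts of COL4A1 (minus strand) and COL4A2 (plus strand) lie 127 bp apart, and their promoter windows (250 bases before to 50 after a start, RefSeq, GRCh38.p14) share 226 bases. On chromosome X those of COL4A6 (minus) and COL4A5 (plus) lie 380 bp apart and share 121 bases. This is the nearer of 2 COL4A6 starts listed, and the window of the other (chrX:108438373-108438672, with 1 SMAD core, 1 GC box and no CCAAT box) shares no base with that of COL4A5. The windows below are COL4A2, chr13:110307034-110307333, plus strand; COL4A5, chrX:108439588-108439887, plus strand; and COL4A6, chrX:108439409-108439708, minus strand, each 5′ to 3′. Capitals mark 3 motifs searched on both strands, none of whose matches overlap: the CCAAT box (its letters are CCAAT, and it reads ATTGG when it lies on the other strand), the core of a SMAD-binding element (letters CAGAC, which there reads GTCTG) and the GC box (letters GGGCGG, with CCGCCC as its other-strand reading).
COL4A2: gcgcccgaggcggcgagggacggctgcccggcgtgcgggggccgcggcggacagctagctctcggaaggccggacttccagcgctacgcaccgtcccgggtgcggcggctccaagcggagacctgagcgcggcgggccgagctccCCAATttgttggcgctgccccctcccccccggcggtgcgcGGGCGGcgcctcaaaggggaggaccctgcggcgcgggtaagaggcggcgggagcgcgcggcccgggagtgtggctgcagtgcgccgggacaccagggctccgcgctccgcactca
COL4A5: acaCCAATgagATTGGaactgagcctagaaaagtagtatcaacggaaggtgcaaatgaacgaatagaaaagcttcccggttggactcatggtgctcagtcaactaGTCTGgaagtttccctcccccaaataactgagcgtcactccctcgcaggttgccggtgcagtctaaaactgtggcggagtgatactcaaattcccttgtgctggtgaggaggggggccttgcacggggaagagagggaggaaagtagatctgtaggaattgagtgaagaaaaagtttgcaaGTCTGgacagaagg
COL4A6: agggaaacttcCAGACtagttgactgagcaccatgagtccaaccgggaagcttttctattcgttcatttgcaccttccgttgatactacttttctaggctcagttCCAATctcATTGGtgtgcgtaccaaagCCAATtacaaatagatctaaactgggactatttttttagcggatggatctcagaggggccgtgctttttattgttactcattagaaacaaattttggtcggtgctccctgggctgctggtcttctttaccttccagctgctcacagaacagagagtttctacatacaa

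The COL4A2 window held 1 CCAAT box, 1 GC box and no SMAD core. The COL4A5 window held 2 CCAAT boxes and 2 SMAD cores, and the COL4A6 window shown 3 CCAAT boxes and 1 SMAD core. Since these windows share bases, both CCAAT boxes and the first SMAD core of COL4A5 are the same letters as in COL4A6, read from the other strand. Among 35116 RefSeq promoter windows of this length, 34.6% held a CCAAT box, 45.3% a SMAD core and 45% a GC box. Among the 44 windows of 32 collagen genes the shares were 31.8, 40.9 and 54.5% in that order. These letter matches are a description and say nothing of binding.

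COL4A1 (ENSG00000187498, chromosome 13, 110148963 to 110307233, minus strand) stood at 3990 and 4034 CPM in shMTHFD2 TGF-β1 against 1281 and 1208 CPM in shMTHFD2 control, and at 4732 and 4324 CPM in shMock TGF-β1 against 1509 and 1323 CPM in shMock control. COL4A2 (ENSG00000134871, chromosome 13, 110305812 to 110513209, plus strand) stood at 3897 and 4062 CPM in shMTHFD2 TGF-β1 against 2065 and 1868 CPM in shMTHFD2 control, and at 4478 and 3954 CPM in shMock TGF-β1 against 2266 and 2012 CPM in shMock control. Neither chain's groups overlapped. COL4A1 rose 3.22-fold in shMTHFD2 (1.69, SE 0.09, edgeR adjusted p = 2.12e-09) and 3.20-fold in shMock (1.68, SE 0.09, adjusted p = 1.74e-09), and COL4A2 by 2.02-fold (1.02, SE 0.10) and 1.97-fold (0.98, SE 0.10). Their ratio per length, COL4A1 over COL4A2, was 1.34 and 1.30 in shMTHFD2 TGF-β1 against 0.812 and 0.847 in shMTHFD2 control, and 1.38 and 1.43 in shMock TGF-β1 against 0.872 and 0.861 in shMock control. With the longest transcripts as lengths the means were 0.990, 0.622, 1.05 and 0.649, so the size of the ratio depends on the gene model. Which chain exceeds the other depended on it in shMTHFD2 TGF-β1 alone. Under either length COL4A2 exceeded COL4A1 in both control groups, and COL4A1 exceeded COL4A2 in shMock TGF-β1.

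COL4A5 (ENSG00000188153, chromosome X, 108439844 to 108697545, plus strand), the chain whose loss causes X-linked Alport syndrome, stood at 106 and 112 CPM in shMTHFD2 TGF-β1 against 218 and 226 CPM in shMTHFD2 control, and at 65.8 and 66.2 CPM in shMock TGF-β1 against 147 and 131 CPM in shMock control. The groups were apart on both axes, with a fall of 2.04-fold under TGF-β1 in shMTHFD2 (-1.03, SE 0.08, edgeR adjusted p = 1.34e-07) and 2.11-fold in shMock (-1.08, SE 0.08, adjusted p = 8.96e-08). COL4A6 was far less abundant, with 2.91 and 1.63 CPM in shMTHFD2 TGF-β1 against 7.08 and 5.17 CPM in shMTHFD2 control, and 1.17 and 1.49 CPM in shMock TGF-β1 against 3.55 and 3.21 CPM in shMock control. It fell in shMTHFD2 (-1.43, SE 0.34, edgeR adjusted p = 0.00566) and in shMock (-1.34, SE 0.37, adjusted p = 0.0105). Neither call of COL4A6 held in every fit that left out 1 library, though the values kept their sign. Its fall did not pass without shMTHFD2 control 1 (-1.20, edgeR adjusted p = 0.0662) or shMTHFD2 TGF-β1 2 (-1.07, adjusted p = 0.0628) in shMTHFD2, nor without shMock TGF-β1 1 in shMock (-1.17, adjusted p = 0.079). Per length, COL4A5 was 0.0337 of COL4A1 in shMTHFD2 TGF-β1 against 0.222 in shMTHFD2 control, and 0.0181 in shMock TGF-β1 against 0.122 in shMock control (means of 2).

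The 3 type VI chains, which assemble together into a heterotrimer, were not moved alike by TGF-β1. COL6A3, the longest of them, stood at 5227 and 5209 CPM in shMTHFD2 TGF-β1 against 3418 and 3367 CPM in shMTHFD2 control, and at 6472 and 5832 CPM in shMock TGF-β1 against 4613 and 3671 CPM in shMock control, a rise of 0.62 (SE 0.10, edgeR adjusted p = 0.000337) and 0.57 (SE 0.10, adjusted p = 0.000534). COL6A1 stood at 1287 and 1238 CPM in shMTHFD2 TGF-β1 against 1830 and 1495 CPM in shMTHFD2 control, and at 1224 and 1168 CPM in shMock TGF-β1 against 1962 and 1800 CPM in shMock control. It fell by 0.40 (SE 0.10, edgeR adjusted p = 0.00706) and by 0.65 (SE 0.10, adjusted p = 9.37e-05). COL6A2 stood at 2435 and 2335 CPM in shMTHFD2 TGF-β1 against 2853 and 2215 CPM in shMTHFD2 control, where the groups overlapped (-0.09, SE 0.10, edgeR adjusted p = 0.611), and at 2336 and 2221 CPM in shMock TGF-β1 against 2952 and 2873 CPM in shMock control, where it fell (-0.35, SE 0.11, adjusted p = 0.0157). COL6A3 over COL6A1, per length, was 1.11 and 1.15 in shMTHFD2 TGF-β1 against 0.508 and 0.613 in shMTHFD2 control, and 1.44 and 1.36 in shMock TGF-β1 against 0.640 and 0.555 in shMock control. The fall of COL6A1 in shMTHFD2 did not pass without shMTHFD2 control 1 (-0.26, edgeR adjusted p = 0.102) or shMTHFD2 TGF-β1 2 (-0.37, adjusted p = 0.0734). That of COL6A2 in shMock did not pass without shMock control 1 (-0.33, edgeR adjusted p = 0.0687), shMock control 2 (-0.35, adjusted p = 0.064) or shMock TGF-β1 2 (-0.32, adjusted p = 0.0713), and with offsets for GC content and length it was -0.09 (adjusted p = 0.434).

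**Figure D4:**
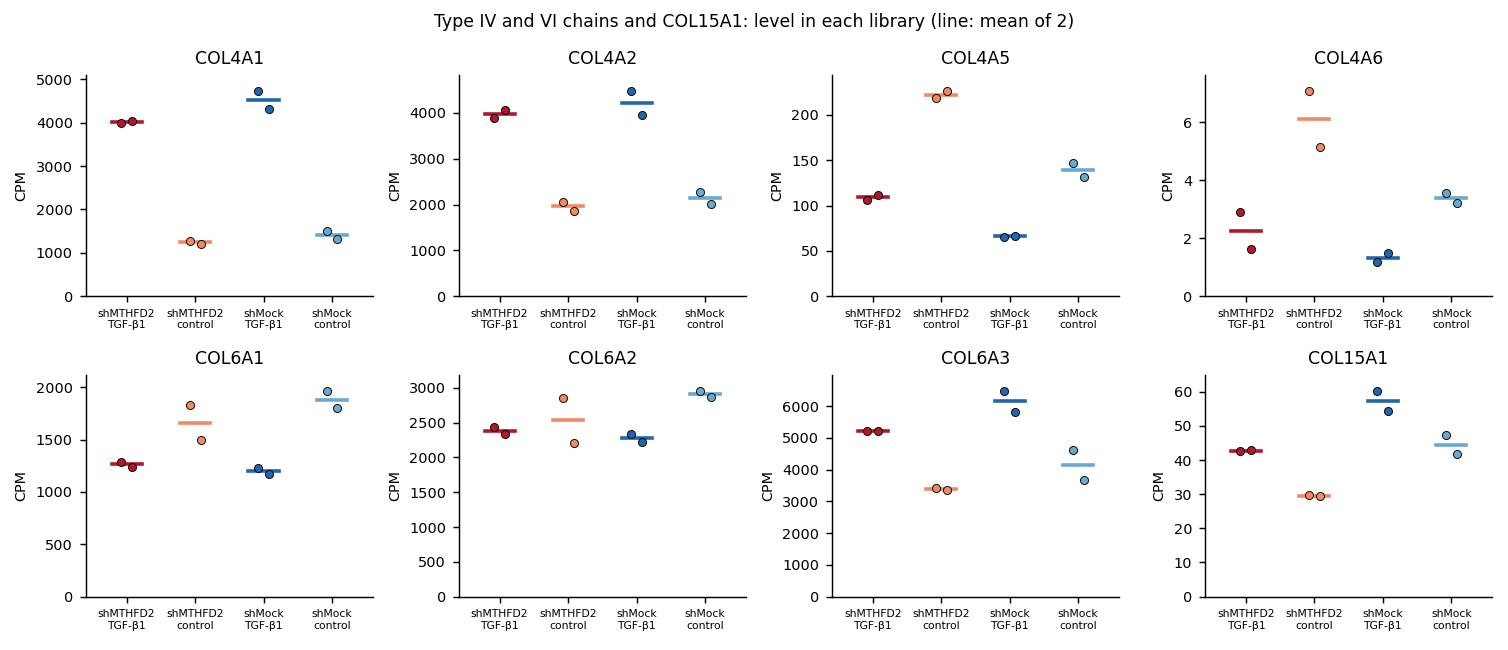
Level in CPM (vertical axes, from 0) of the 4 type IV and 3 type VI chains tested and of COL15A1 in each library, with 4 groups along the horizontal axis, points for single libraries and lines for the mean of 2. COL4A1 and COL4A2 are higher and COL4A5 and COL4A6 lower with TGF-β1 in both lines, and COL4A5 is higher and COL15A1 lower in shMTHFD2 than in shMock at each treatment.

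**Figure D5:**
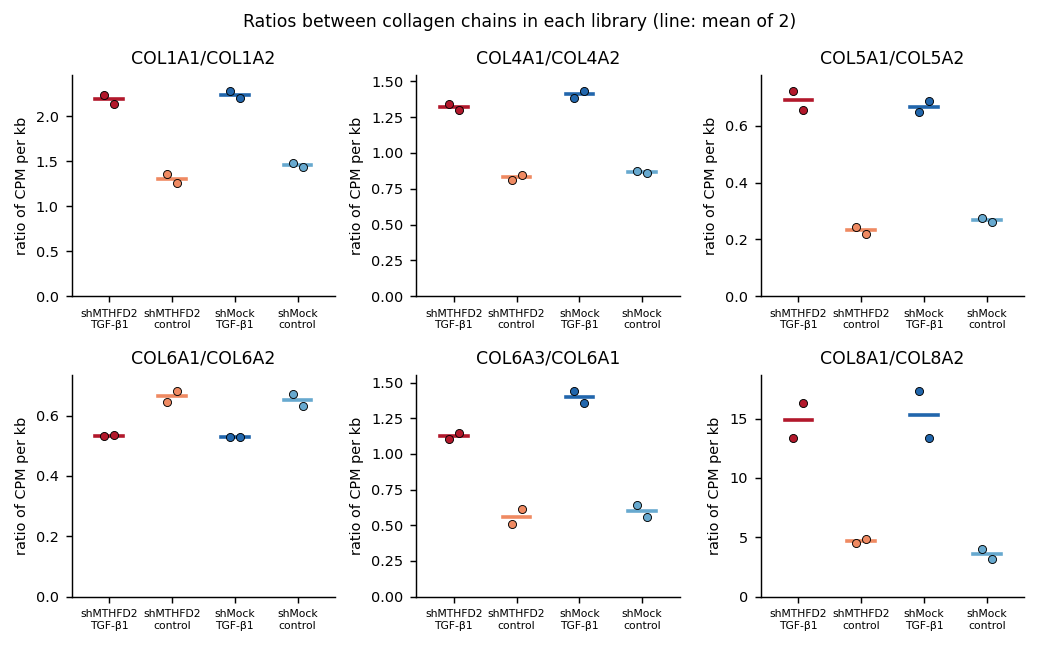
Ratio between chains in CPM per kilobase of exon (vertical axes, from 0) for 6 chain pairs in each library, with 4 groups along the horizontal axis, points for single libraries and lines for the mean of 2. COL1A1/COL1A2, COL4A1/COL4A2, COL5A1/COL5A2, COL6A3/COL6A1 and COL8A1/COL8A2 are higher in all TGF-β1 libraries than in all controls, and COL6A1/COL6A2 is lower (means 0.534 and 0.529 with TGF-β1 against 0.664 and 0.651 in the controls of shMTHFD2 and shMock).

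The short-chain collagens form hexagonal networks. COL8A1, the type VIII chain made by vascular and corneal cells, stood at 150 and 157 CPM in shMTHFD2 TGF-β1 against 45.8 and 45.8 CPM in shMTHFD2 control, and at 193 and 176 CPM in shMock TGF-β1 against 57.9 and 52.1 CPM in shMock control. It rose 3.35-fold in both lines (1.75, SE 0.09 each, edgeR adjusted p = 6.73e-10 in shMTHFD2 and 4.59e-10 in shMock). The other type VIII chain, COL8A2, stood at 4.65 to 8.14 CPM over all libraries and did not pass in either line (0.10 and -0.33). COL10A1, the chain of hypertrophic cartilage, was nearly absent without TGF-β1. It had 68 counts over the 2 shMTHFD2 TGF-β1 libraries against 4 over the shMTHFD2 controls, and 107 over the shMock TGF-β1 libraries against 8 over the shMock controls. The depth-scaled ratios were 17.7 (exact 95% interval 6.62 to 66.9) and 15.7 (7.7 to 37.3), and its level with TGF-β1 was 1.48 and 1.98 CPM in shMTHFD2 and 3.57 and 2.29 CPM in shMock. The fitted log2 fold changes were 4.06 (SE 0.64, edgeR adjusted p = 0.000198) and 3.92 (SE 0.55, adjusted p = 5.48e-05). The shMTHFD2 value moved to 3.42 without shMTHFD2 control 1 (edgeR adjusted p = 0.00586) and to 5.04 without shMTHFD2 control 2 (adjusted p = 0.00131). A further low chain under the minimum, COL25A1 (a transmembrane collagen of neurons and muscle), had 14 counts with TGF-β1 against 4 without it in shMTHFD2 (ratio 3.65, 1.15 to 15.2), and 24 against 1 in shMock (28.2, 4.6 to 1160).

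COL7A1, the anchoring fibril chain that ties skin epithelium to dermis, stood at 1415 and 1267 CPM in shMTHFD2 TGF-β1 against 582 and 516 CPM in shMTHFD2 control, and at 1112 and 1216 CPM in shMock TGF-β1 against 634 and 498 CPM in shMock control. It rose 2.44-fold (1.29, SE 0.11, edgeR adjusted p = 3.83e-07) and 2.06-fold (1.04, SE 0.11, adjusted p = 3.1e-06). The FACIT chains were divided. COL12A1, which links fibrils in tissues under load, rose (values with the knockdown below) by 0.98 (SE 0.11) in shMTHFD2 and 1.46 (SE 0.12) in shMock. COL14A1, its close relative, had 18.5 and 24.5 CPM in shMTHFD2 TGF-β1 against 33.3 and 31.7 CPM in shMTHFD2 control, and 19.3 and 15.9 CPM in shMock TGF-β1 against 29.3 and 27.3 CPM in shMock control. It fell in both lines (-0.60, SE 0.14, edgeR adjusted p = 0.00487, and -0.68, SE 0.14, adjusted p = 0.00161), and without shMTHFD2 TGF-β1 1 its fall in shMTHFD2 did not pass (-0.41, adjusted p = 0.0716). COL9A2, another cartilage chain, had 3.68 and 4.88 CPM in shMTHFD2 TGF-β1 against 6.62 and 5.17 CPM in shMTHFD2 control (-0.46, not called), and 2.77 and 4.13 CPM in shMock TGF-β1 against 6.20 and 6.85 CPM in shMock control (-0.92, SE 0.27, edgeR adjusted p = 0.0163). The shMock call did not pass without shMock control 2 (-0.82, edgeR adjusted p = 0.0926), without shMock TGF-β1 1 (-0.65, adjusted p = 0.147) or with GC and length offsets (-0.68, adjusted p = 0.0553). COL16A1, a FACIT chain of fibroblasts and muscle, lay between 359 and 427 CPM in all libraries and passed in neither line.

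The 2 multiplexins, basement membrane collagens whose ends are cut to anti-angiogenic fragments, also went apart. COL15A1 rose under TGF-β1 by 0.53 (SE 0.10, edgeR adjusted p = 0.000816) in shMTHFD2 and by 0.36 (SE 0.10, adjusted p = 0.00797) in shMock. The shMock call did not pass without shMock control 2 (0.30, edgeR adjusted p = 0.0888), without shMock TGF-β1 1 (0.29, adjusted p = 0.0716) or with scaling on library totals (0.23, adjusted p = 0.0613). COL18A1 stood at 436 and 419 CPM in shMTHFD2 TGF-β1 against 601 and 450 CPM in shMTHFD2 control (-0.30, SE 0.11, edgeR adjusted p = 0.066; called by DESeq2, adjusted p = 0.0311, and with GC and length offsets, adjusted p = 0.00946), and at 360 and 329 CPM in shMock TGF-β1 against 515 and 480 CPM in shMock control, where it fell (-0.53, SE 0.11, adjusted p = 0.00173). The fall of COL18A1 in shMTHFD2 was also called by edgeR with library totals (-0.41, adjusted p = 0.0109), without the filter (-0.29, adjusted p = 0.0079) and with a replicate block. In the knockdown with TGF-β1 it was 0.31 (SE 0.11, edgeR adjusted p = 0.0825), a value that DESeq2 called (0.30, adjusted p = 0.0452). EdgeR called it too with library totals (0.40, adjusted p = 0.0242), without the filter (0.31, adjusted p = 0.00818) and with a replicate block. SLC19A1 on the opposite strand overlaps 16.4% of its exon length, and whether counting used strand is not given in the sources used here, so the counts of COL18A1 are uncertain. COL5A3 (4%), COL15A1 (2.06%) and COL16A1 (1.26%) overlap antisense genes over smaller parts of their length. The transmembrane chain COL13A1, found at cell junctions and muscle synapses, had 6.23 and 4.37 CPM in shMTHFD2 TGF-β1 against 10.3 and 9.87 CPM in shMTHFD2 control, and 7.30 and 6.94 CPM in shMock TGF-β1 against 15.4 and 15.9 CPM in shMock control. It fell in both lines (-0.93, SE 0.19, edgeR adjusted p = 0.00193, and -1.13, SE 0.18, adjusted p = 0.000189).

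The knockdown comparison asks whether the line with less MTHFD2 differs in its collagen chains. With TGF-β1, 1 of the 28 chains was higher in shMTHFD2 than in shMock and 3 were lower (edgeR adjusted p under 0.05), where 4.83% of all genes were higher and 8.23% lower. Without TGF-β1, 2 were higher and 3 lower, where 3.25% of all genes were higher and 8.19% lower. These shares of the chains (14.3% called in either direction with TGF-β1, 17.9% without) lie near those of all genes (13.1 and 11.4%). Medians over the tested chains were 0.04 with TGF-β1 and -0.10 without it, against 0.01 and -0.01 over all genes. With TGF-β1, 0 of the 10 fibrillar chains passed in the main edgeR fit or in DESeq2. In edgeR 1 had an unadjusted p under 0.05 (COL24A1, 0.41), a level at which the share of all genes was not taken. Other edgeR fits called COL24A1 higher, with library totals (0.50, adjusted p = 0.0214), with GC and length offsets (0.46, adjusted p = 0.0218), without the filter (0.41, adjusted p = 0.0421) and without shMock TGF-β1 1 (0.58, adjusted p = 0.0494). COL1A1 differed by 0.04 (SE 0.10, edgeR adjusted p = 0.843), COL1A2 by 0.08 (SE 0.09, adjusted p = 0.648), COL3A1 by 0.07 (SE 0.09, adjusted p = 0.64) and COL5A1 by -0.00 (SE 0.10, adjusted p = 0.985). For COL1A1 the shMTHFD2 TGF-β1 libraries (25450 and 25550 CPM) lay within the range of the shMock TGF-β1 libraries (26190 and 23430 CPM). COL6A3 missed the threshold in the main edgeR fit (-0.24, adjusted p = 0.152 with TGF-β1, and -0.29, adjusted p = 0.0903 without it). Its lines did not overlap at either treatment. Without TGF-β1 it was called lower by DESeq2 (-0.28, adjusted p = 0.0304). So it was by edgeR with GC and length offsets (-0.36, adjusted p = 0.0156) and without the filter (-0.28, adjusted p = 0.0104). With TGF-β1 the edgeR fit without the filter called it (-0.24, adjusted p = 0.042). A p that misses the threshold does not show that the levels were equal.

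COL4A5 had the largest called difference between the lines. With TGF-β1 it was at 106 and 112 CPM in shMTHFD2 against 65.8 and 66.2 CPM in shMock (1.65-fold, log2 0.72, SE 0.08, edgeR adjusted p = 7.6e-05), and without it at 218 and 226 CPM in shMTHFD2 against 147 and 131 CPM in shMock (1.60-fold, 0.68, SE 0.08, adjusted p = 7.48e-05). The call held in all 8 fits that left out 1 library and under every scaling tried, at 0.68 to 0.75 with TGF-β1 and 0.61 to 0.76 without it over those 8 fits. Its head-to-head partner COL4A6 had values of the same sign (0.77, SE 0.38, edgeR adjusted p = 0.21 with TGF-β1; 0.86, SE 0.33, adjusted p = 0.111 without) and was not called. COL4A1 and COL4A2 were not called in the main fit either (-0.17 and -0.08 with TGF-β1, -0.19 and -0.12 without). With GC and length offsets COL4A1 was called lower with TGF-β1 (-0.26, edgeR adjusted p = 0.0473). The ratio of COL4A5 to COL4A1 was thus higher in shMTHFD2 than in shMock at each treatment (0.0330 and 0.0344 against 0.0173 and 0.0190 with TGF-β1, 0.212 and 0.233 against 0.121 and 0.123 without).

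COL15A1 (ENSG00000204291, chromosome 9, 98943179 to 99070792, plus strand) was lower in the knockdown. It stood at 42.5 and 43.1 CPM in shMTHFD2 TGF-β1 against 60.2 and 54.3 CPM in shMock TGF-β1 (1.34-fold lower, -0.42, SE 0.10, edgeR adjusted p = 0.0102), and at 29.6 and 29.5 CPM in shMTHFD2 control against 47.4 and 41.7 CPM in shMock control (1.51-fold lower, -0.59, SE 0.10, adjusted p = 0.00117). The lines did not overlap at either treatment. Without TGF-β1 the call held in all 8 leave-one-out fits. With it, the call did not pass without shMTHFD2 TGF-β1 1 (-0.42, edgeR adjusted p = 0.0559) or shMock TGF-β1 1 (-0.34, adjusted p = 0.0985).

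COL12A1 (ENSG00000111799, chromosome 6, 75084326 to 75206051, minus strand) was lower in the knockdown with TGF-β1 and did not pass without it. It stood at 1833 and 1919 CPM in shMTHFD2 TGF-β1 against 2716 and 2200 CPM in shMock TGF-β1 (1.31-fold lower, -0.39, SE 0.11, edgeR adjusted p = 0.0362), and at 912 and 987 CPM in shMTHFD2 control against 994 and 797 CPM in shMock control (0.08, SE 0.11, adjusted p = 0.706). The shMock TGF-β1 libraries differed widely from each other. Without shMock TGF-β1 1 the value was -0.22 (edgeR adjusted p = 0.296), without shMTHFD2 TGF-β1 1 it was -0.37 (adjusted p = 0.177) and without shMTHFD2 TGF-β1 2 it was -0.42 (adjusted p = 0.107), none of them called. Scaling on library totals gave -0.30 (adjusted p = 0.0644). COL8A1 was at 150 and 157 CPM in shMTHFD2 TGF-β1 against 193 and 176 CPM in shMock TGF-β1 (-0.27, SE 0.08, edgeR adjusted p = 0.0456), and at 45.8 and 45.8 CPM in shMTHFD2 control against 57.9 and 52.1 CPM in shMock control, which did not pass (-0.26, SE 0.09, adjusted p = 0.0674). With GC and length offsets the difference in control cells was called as well (-0.28, edgeR adjusted p = 0.0281). The call of COL8A1 with TGF-β1 lay close to the threshold. It was lost without shMTHFD2 TGF-β1 1 (-0.25, edgeR adjusted p = 0.217), shMTHFD2 TGF-β1 2 (-0.30, adjusted p = 0.11), shMock TGF-β1 1 (-0.19, adjusted p = 0.272) or shMock control 1 (-0.27, adjusted p = 0.0538), with scaling on library totals (-0.17, adjusted p = 0.139) and with a replicate block (-0.26, adjusted p = 0.0519).

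The other calls between the lines in the main fit were in control cells. COL24A1, a fibrillar chain of developing bone, was at 29.4 and 30.3 CPM in shMTHFD2 control against 22.8 and 19.0 CPM in shMock control (0.51, SE 0.13, edgeR adjusted p = 0.0218), and at 22.5 and 25.1 CPM against 19.8 and 16.0 CPM with TGF-β1 (0.41, SE 0.14, adjusted p = 0.0636). The lines did not overlap at either treatment. COL13A1 was at 10.3 and 9.87 CPM in shMTHFD2 control against 15.4 and 15.9 CPM in shMock control (-0.63, SE 0.18, edgeR adjusted p = 0.0318). COL5A3 was at 50.8 and 44.6 CPM in shMTHFD2 control against 68.9 and 61.4 CPM in shMock control (-0.45, SE 0.11, adjusted p = 0.015), while with TGF-β1 it differed by 0.02 (SE 0.11). None of these 3 calls held in every fit that left out 1 library, though the fold changes kept their sign. COL24A1 did not pass without shMTHFD2 control 1 (0.55, edgeR adjusted p = 0.0532), shMTHFD2 control 2 (0.50, adjusted p = 0.11) or shMock control 2 (0.41, adjusted p = 0.209). COL13A1 did not pass when any of the 4 control libraries was left out (-0.66 to -0.59, edgeR adjusted p = 0.102 to 0.185) or with scaling on library totals (-0.57, adjusted p = 0.0565). COL5A3 did not pass without shMTHFD2 control 2 (-0.35, edgeR adjusted p = 0.172) or shMock control 1 (-0.36, adjusted p = 0.128).

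The interaction asks whether the TGF-β1 response differs between the lines. It called 0 of the 28 chains in edgeR and 0 in DESeq2, where edgeR called 0.0889% of all genes (0.0371% higher and 0.0519% lower). At an unadjusted p under 0.05 there were 2. The share of all genes at that unadjusted level was not taken, so the count is not read as a result about the chains. COL5A3 had a TGF-β1 response of -0.28 in shMTHFD2 against -0.74 in shMock (difference 0.47, SE 0.16, edgeR adjusted p = 0.259). COL12A1 had 0.98 in shMTHFD2 against 1.46 in shMock (difference -0.47, SE 0.16, adjusted p = 0.262), which is 1.98-fold against 2.75-fold. Without the filter on low counts COL12A1 was called (-0.48, edgeR adjusted p = 0.00846), in a fit that called 321 of 24970 genes. GC content moved with the interaction, with a Spearman rho of 0.473 across the 13416 genes with a GC value and 0.591 across the 28 chains. The same rho was 0.0232 across genes and -0.186 across the chains for TGF-β1 in shMTHFD2, -0.285 and -0.309 for TGF-β1 in shMock, 0.329 and 0.223 for the knockdown with TGF-β1, and -0.143 and -0.2 for the knockdown without it. Offsets for GC content and length left the interaction without a called chain. With these offsets the TGF-β1 response of COL5A3 was -0.31 in shMTHFD2 against -0.54 in shMock. That of COL12A1 was 0.95 against 1.34, so for both chains the lines stood nearer to each other than in the main fit. These are descriptions across genes, which are not independent.

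Among the genes that make and handle collagen chains, many rose with TGF-β1 in both lines, beside the 12.8% (shMTHFD2) and 17.3% (shMock) of all genes that rose. Of 18 genes of procollagen hydroxylation, glycosylation and folding, 13 rose and 2 fell in shMTHFD2, and 12 rose and 2 fell in shMock. Among them were P4HA3, a catalytic subunit of prolyl 4-hydroxylase (1.69 in both lines), PLOD2, the lysyl hydroxylase of collagen telopeptides (1.46 and 1.95), and SERPINH1, the collagen chaperone HSP47 (1.01 and 0.90). All 7 export genes rose in both lines, among them CREB3L2, a transcription factor of the secretory pathway (2.15 and 2.29), and the coat protein SEC24D (1.10 and 1.02). Of the 5 propeptide-cleavage genes tested, out of 8, 3 rose in each line, among them ADAMTS14 (1.48 and 1.30), and PCOLCE, an enhancer of BMP1, fell in shMock and was not called in shMTHFD2 (0.12 and -0.30). Of 5 cross-linking genes, LOX (1.07 and 1.03) and LOXL2 (0.96 and 0.76) rose. Of 8 collagen receptors, 5 rose and 1 fell in shMTHFD2 and 6 rose in shMock, led by the integrin chain ITGA1 (2.82 and 3.34). Values are log2 fold changes in shMTHFD2 and then in shMock. With library totals as the scale, 3677 of 13493 genes were called in shMTHFD2 (33.2% of them higher) and 5502 in shMock (28.5% of them higher). On that scale hydroxylation and folding had 13 higher and 3 lower in shMTHFD2, and 11 and 5 in shMock. Cross-linking had 2 higher and 1 lower in shMTHFD2, and 2 and 2 in shMock. The receptors had 5 higher and 1 lower in shMTHFD2, and 6 and 1 in shMock. Export had 6 higher in shMTHFD2 and 7 in shMock, and the propeptide-cleavage counts were the same.

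Between the lines in the main fit, most of the calls among these genes were lower in the knockdown, as were most of those over all genes (8.23% lower and 4.83% higher with TGF-β1, 8.19% lower and 3.25% higher without). Scaling on library totals was an alternative chosen for these lists after their values were seen. On that scale 2055 of 13493 genes were called with TGF-β1, 65.1% of them higher, and 1495 without it, 50.5% of them higher. The direction over all genes thus depended on the scale. Library totals gave the hydroxylation and folding list 4 lower and 1 higher with TGF-β1 and 4 lower without it. The receptors then had 1 lower and 1 higher with TGF-β1 and 1 higher without it. Export had 2 lower with it, and 1 lower and 1 higher without it. Cross-linking had 1 lower with it and 2 lower without it. In the main fit 5 of the 18 hydroxylation and folding genes were lower with TGF-β1 and 8 without it. P3H2, a prolyl 3-hydroxylase active on type IV chains, was lower at both (-0.93, SE 0.13, edgeR adjusted p = 0.000281 with TGF-β1; -0.78, SE 0.12, adjusted p = 0.000741 without). P4HA2, another prolyl 4-hydroxylase subunit, was lower at both as well (-0.37 and -0.43). In the export list 3 of 7 were lower with TGF-β1 and 2 without it, where MIA3, the TANGO1 receptor that loads procollagen, was higher (0.35). CREB3L1, a factor that drives type I collagen genes, was lower at both (-0.49 and -0.55). LOX, the main cross-linking oxidase, stood at 585 and 606 CPM in shMTHFD2 TGF-β1 against 905 and 853 CPM in shMock TGF-β1 (-0.56, SE 0.08, edgeR adjusted p = 0.000279), and at 277 and 292 CPM in shMTHFD2 control against 432 and 427 CPM in shMock control (-0.59, SE 0.08, adjusted p = 0.00018). It was the 1 cross-linking gene of 5 called with TGF-β1, and 3 were lower without it. ITGA1 (-0.65) and DDR2 (-0.35) were the 2 receptors of 8 lower with TGF-β1. Over the same fits the fibroblast markers did not stay level, with 1 of 8 higher and 1 lower in the knockdown with TGF-β1, and 1 higher and 4 lower without it, and their part in these values was not tested.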

How the data were processed

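Messenger RNA libraries of MRC5 cells were sequenced on an Illumina instrument per the labels' protocols. STAR 2.7.1a, DESeq2 1.32.0 and build GRCh38 stand in the submitters' processing notes without a stated role. Not given in the sources used here are the read counter, its annotation and its strand setting. The deposited table, labelled as FPKM, holds whole-number counts for each gene ID, 1 column per library, and was treated as counts. Symbols matched 60437 IDs, and GENCODE 29 gave positions and exon lengths for 58420. Counts were fitted with edgeR 4.0.16 in R 4.3.3 by the quasi-likelihood test, in 1 fit of all 8 libraries with a mean per group, TMM factors (0.914 to 1.07), a mean of at least 1 CPM and 4 residual degrees of freedom. The 13493 genes kept hold 99.8 to 99.9% of the counts, and edgeR's common dispersion gives a coefficient of variation of 8.79%. P-values were adjusted by Benjamini-Hochberg over all genes tested, with 0.05 as the threshold. Standard errors were back-calculated from each F statistic and are approximate. CPM use TMM-scaled library sizes, and CPM per kilobase divide by the union of exons. Ratio intervals are exact binomial 95% intervals. The chains, their classes and the gene lists were chosen with earlier results of these data known. Chains past the threshold in any comparison are named with statistics, and library values are given for those called between the lines, the 4 highest and 4 lowest called under TGF-β1 and the type I, III, IV and VI chains. Values of other chains and of list genes were chosen after they were seen. Alternatives were DESeq2 1.42.0 size factors and Wald test, library totals, no filter, GC and length offsets (a spline of 4 degrees of freedom each), a replicate block and 8 fits without 1 library. The fit was tested on simulated counts. Promoter windows came from RefSeq (GRCh38.p14), where 32 of the 44 genes had an entry.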

Additional observations from a re-analysis of the deposited data

How the results depend on the processing

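No called value reversed under any alternative, and DESeq2 size factors changed no count of called chains. Values near 0 that were not called turned sign in some fits, among them COL16A1 under TGF-β1 in shMock (-0.13 with library totals) and COL5A1 in the knockdown with TGF-β1 (0.09), and none of the turned values was called. In edgeR with library totals as the scale, under which the middle of all genes' log2 fold changes lay at -0.12 (TGF-β1 in shMTHFD2), -0.16 (TGF-β1 in shMock), 0.10 (knockdown with TGF-β1) and 0.06 (knockdown without), 8 chains fell with TGF-β1 in shMTHFD2 (5 with TMM), and the knockdown with TGF-β1 gave 3 higher and 1 lower (1 and 3 with TMM). Among all called genes that scale put 33.2, 28.5, 65.1 and 50.5% on the higher side. With GC and length offsets 8 fell with TGF-β1 in shMTHFD2, 2 were higher in the knockdown with TGF-β1 and 5 lower without it. Without the filter 3 were higher in the knockdown with TGF-β1 and the interaction called 1 chain lower. The DESeq2 Wald test and the replicate block each gave 2 higher in the knockdown with TGF-β1. Leaving out 1 library at a time gave 13 to 14 higher and 3 to 6 lower for TGF-β1 in shMTHFD2, 12 to 14 higher and 7 to 9 lower for TGF-β1 in shMock, 1 to 2 higher and 0 to 3 lower for the knockdown with TGF-β1, 1 to 2 higher and 1 to 3 lower without it, and 0 in the interaction. COL10A1 fell below the filter without shMock TGF-β1 1. A fit that leaves 1 library in a group assumes that it varies like the others. The causes of these shifts were not tested, beyond the smaller number of libraries or genes in some fits. Replicate numbers are not said to mark a shared batch. The replicate 1 minus replicate 2 differences of the groups correlated at -0.02 to 0.07 across genes. That check cannot settle whether samples shared a batch, because a batch could touch few genes or act differently in each group. The replicate block changed the call of COL8A1 (knockdown with TGF-β1, lost) and of COL18A1, which then passed in shMTHFD2 with TGF-β1 against control (-0.29, adjusted p = 0.0358) and in the knockdown with TGF-β1 (0.31, adjusted p = 0.0407), and no other call. Depth limits the chains under 1 CPM, where few counts leave wide intervals.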

Other observations

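Further pairs of chains are neighbours. COL3A1 and COL5A2 lie tail to tail on chromosome 2 with 19149 bp between them, and TGF-β1 against control gave COL3A1 -0.03 and COL5A2 0.24 in shMTHFD2, both not called, and -0.06 and 0.41 in shMock, where COL5A2 was called. COL6A1 and COL6A2 lie in the same direction on chromosome 21 with 93046 bp between them and had the same sign in both lines, with COL6A1 alone called in shMTHFD2 (-0.40 and -0.09) and both called lower in shMock (-0.65 and -0.35). COL4A4 and COL4A3, the remaining head-to-head type IV pair with 111 bp between the annotated genes, had 0 counts in all 8 libraries. COL21A1, a FACIT chain under the minimum level, had 12 counts in shMTHFD2 TGF-β1 against 25 in shMTHFD2 control, and 3 in shMock TGF-β1 against 17 in shMock control, summed over the 2 libraries of a group. The neighbours and this chain were picked after their values were seen.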
